A study of Mus musculus with 9 samples.

Results

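A set of genes that mark tendon cells was followed in mouse gastrocnemius, the large calf muscle, whose fibers pull on the Achilles tendon and hold tendon sheets inside the belly. The genes were chosen by name: Scx, Tnmd, Mkx, Fmod, Thbs4, Comp, Chad, Kera and Tnc, 9 of the 55416 gene identifiers measured. All 9 had reads in every library, and all 9 passed the filter on low counts, which left 13944 genes. The samples were 9 libraries of gastrocnemius RNA in 3 groups of 3. SED mice were sedentary. AET mice ran on a motorized treadmill on 5 days a week, 60 minutes a day, for 8 weeks. AET_MET mice ran in the same way and drank metformin, an oral glucose-lowering drug, at 2 mg/mL in their water. The sources used here do not give age, sex or strain, and no library of metformin without training was analysed here. Samples are numbered within a group, with no word on whether each is a separate animal, so the spread behind each p-value may be technical. Whether tendon was trimmed from the muscle was not stated.

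Tendon is made by fibroblast-like tenocytes that lay down parallel fibers of type I collagen. Scx encodes scleraxis, the helix-loop-helix factor that marks tendon cells from the embryo on, and Mkx encodes Mohawk, a homeobox factor that sustains the adult tendon program. Tnmd encodes tenomodulin, a surface glycoprotein used as the marker of mature tenocytes. Fmod, Kera and Chad encode fibromodulin, keratocan and chondroadherin, leucine-rich repeat proteins of the matrix that bind collagen. Thbs4 and Comp encode pentameric thrombospondins that bridge matrix molecules, and Tnc encodes tenascin C, a glycoprotein of loaded junctions between tendon and muscle. In a bulk muscle library, fewer tendon cells and less RNA per tendon cell cannot be told apart.

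Levels are given as CPM, read counts relative to the size of the library, scaled by TMM, which aligns the bulk of genes between libraries. Libraries held 15434424 to 25355877 expected counts, the fewest in AET_MET replicate 1. No pair of libraries in a group agreed within sampling noise (chi-square over degrees of freedom 14.7 or more), so each was counted once. The 9 fast-fiber marker genes summed to 119000 to 140000 CPM in every group, so the label of a fast leg muscle was matched by its defining markers.

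The tendon cell genes varied widely between libraries of 1 group. SED replicate 3 held the highest level of 8 of the 9 genes and AET_MET replicate 3 the lowest of 8, Scx being the exception in both cases. Within AET, replicate 2 was highest for all 9 genes and replicate 1 lowest for 8. The 9 genes together took 0.0528% of the counts in SED replicate 3, 0.0139% in AET replicate 1 and 0.0100% in AET_MET replicate 3. Their mean log2 CPM was 3.95 ± 0.42 for SED, 3.21 ± 0.59 for AET and 2.71 ± 0.72 for AET_MET (SD, n = 3). It spanned 0.83 within SED, 1.17 within AET and 1.31 within AET_MET, as the plot of levels by gene and library shows.

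**Figure D1:**
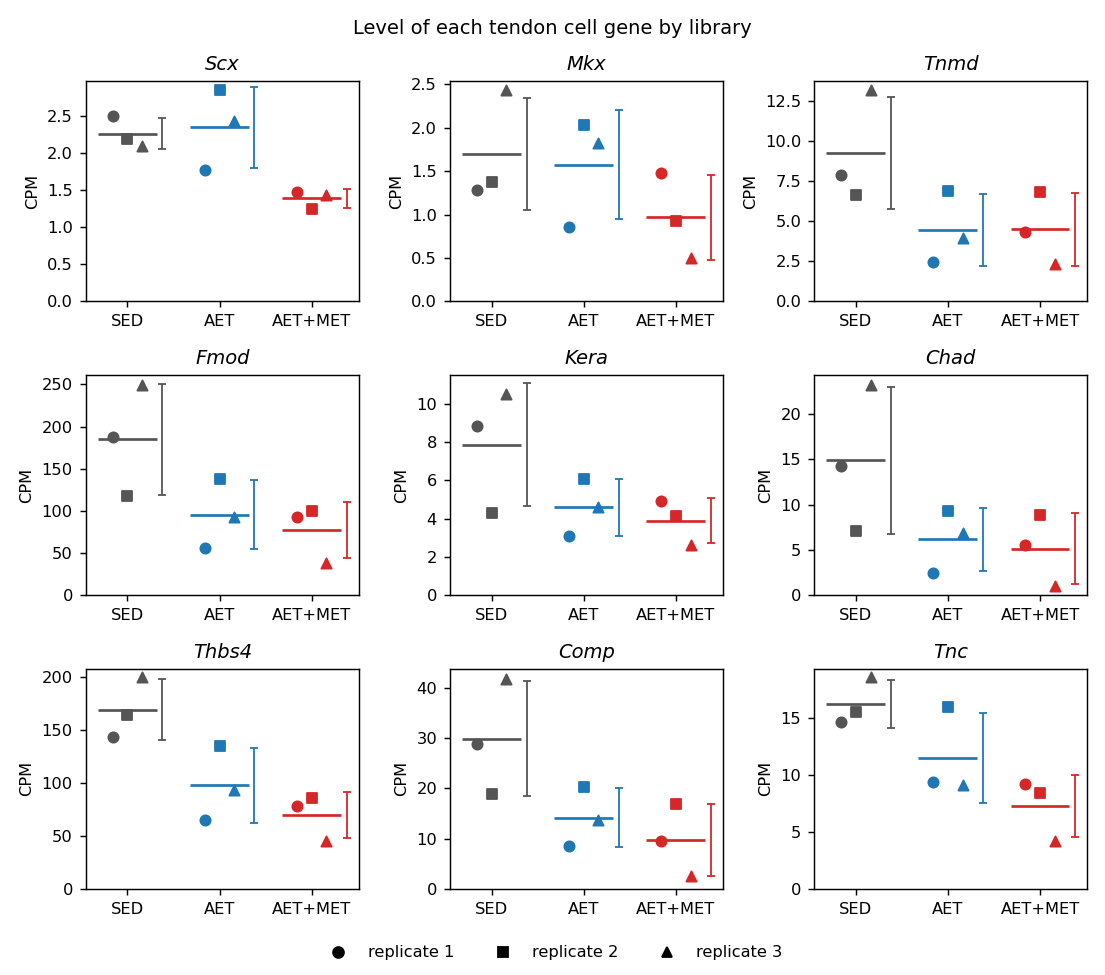
CPM of each of the 9 tendon cell genes in the 9 libraries, on axes that start at 0. Symbols mark the replicate, horizontal lines the group mean and the bars beside them the SD (n = 3). SED replicate 3 is the top point for 8 genes and AET_MET replicate 3 the bottom point for 8.

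No tendon cell gene was called in any comparison, at an edgeR adjusted p under 0.05. Across all genes tested, 12.3% were called between AET and SED, 4.59% between AET_MET and SED, and 3.43% between AET_MET and AET. At an unadjusted p under 0.05 there were 0, 5 and 1 of the 9 genes in these comparisons, against 28.5%, 20.6% and 21.4% of all genes. Estimates leaned one way all the same. Lower values were estimated for 8 of 9 between AET and SED, 9 of 9 between AET_MET and SED, and 8 of 9 between AET_MET and AET, where about as many of all genes were lower as higher (48.6%, 49.5% and 49.9% lower). The median log2 change of the 9 was -0.79, -1.17 and -0.49, against 0.01, 0.00 and 0.00 over all genes. The first and second comparisons share the SED libraries, and the genes share their libraries, so these counts are not independent of each other. With DESeq2 in place of edgeR, 3 of the 9 were called lower in AET_MET against SED, where that test called 6.72% of genes, and 4.06% lower. DESeq2 called 0 of the 9 between AET and SED and 0 between AET_MET and AET, where it called 12.1% and 8.24% of genes.

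Among the regulators, Scx stood apart from the other members. Its level was 2.5, 2.20 and 2.10 CPM in SED replicates 1 to 3, 1.77, 2.85 and 2.43 CPM in AET, and 1.48, 1.25 and 1.44 CPM in AET_MET. All 3 AET_MET libraries lay below all 6 others, while SED and AET overlapped. The log2 change was 0.06 ± 0.21 (SE) in AET against SED (edgeR adjusted p = 0.884) and -0.71 ± 0.22 in AET_MET against SED (edgeR adjusted p = 0.0934). In AET_MET against AET it was -0.77 ± 0.22, with the lowest adjusted p of any member in that comparison (edgeR adjusted p = 0.0711). No overlap downward was seen for 13.2% of all genes in AET_MET against AET, and Scx was the only one of the 9 genes with it. Scx was counted from 24 to 73 reads a library, and the exact Poisson interval at AET_MET replicate 2 (0.824 to 1.82 CPM, 95%, counting error only) met that of SED replicate 3 (1.52 to 2.83 CPM). On GRCm38 it lies on chromosome 15 at 76457452 to 76459458, inside the span of Bop1 on the opposite strand, with which it shares 0 exonic bases. Bop1, a ribosome assembly gene, stood at 12.1 to 18.7 CPM. Whether the counting used strand is not given in the sources used here, so unspliced Bop1 reads in Scx counts cannot be told apart from Scx reads.

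Mkx was the least abundant member. It stood at 1.28, 1.37 and 2.44 CPM in SED, 0.859, 2.03 and 1.83 CPM in AET, and 1.48, 0.926 and 0.494 CPM in AET_MET, from 11 to 52 reads. All 3 groups overlapped. The log2 changes were -0.09 ± 0.40 for AET against SED, -0.84 ± 0.43 for AET_MET against SED, and for AET_MET against AET -0.75 ± 0.43 (edgeR adjusted p = 0.906, 0.295 and 0.336). It lies on chromosome 18 at 6934518 to 7004780.

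Tnmd, the tenocyte surface marker, was about equally low in both trained groups. Its level was 7.89, 6.61 and 13.2 CPM in SED, 2.48, 6.91 and 3.97 CPM in AET, and 4.32, 6.85 and 2.33 CPM in AET_MET. One library of each trained group exceeded SED replicate 2, so the groups overlapped. The log2 change against SED was -1.04 ± 0.50 in AET (edgeR adjusted p = 0.231) and -1.03 ± 0.51 in AET_MET (edgeR adjusted p = 0.311). AET_MET and AET differed by 0.00 ± 0.53. Tnmd lies on chromosome X at 133850980 to 133865577.

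Fmod, the first of the leucine-rich repeat genes, had the highest mean CPM of the members in SED and AET_MET, with Thbs4 slightly above it in AET, and its order of libraries was nearly that of the whole group. It stood at 188, 117 and 249 CPM in SED, 55.4, 138 and 93.2 CPM in AET, and 92.6, 99.9 and 38.5 CPM in AET_MET. SED replicate 2 lay below AET replicate 2, while all AET_MET libraries lay below all SED libraries. The log2 changes were -0.95 ± 0.51 in AET against SED and -1.26 ± 0.52 in AET_MET against SED (edgeR adjusted p = 0.281 and 0.237). Fmod lies on chromosome 1 at 134037254 to 134048277.

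Chad had the widest spread. Its level was 14.3, 7.09 and 23.2 CPM in SED, 2.43, 9.29 and 6.81 CPM in AET, and 5.55, 8.84 and 0.988 CPM in AET_MET. The highest library held 23.5 times the lowest, and the groups overlapped in every comparison. Its log2 changes against SED were large but imprecise, at -1.25 ± 0.80 in AET and -1.54 ± 0.83 in AET_MET (edgeR adjusted p = 0.365 and 0.360). AET_MET replicate 3 held 22 Chad reads (0.619 to 1.5 CPM, exact Poisson 95%), so counting error does not span the gap to the next lowest library at 2.43 CPM (1.81 to 3.20 CPM). Chad lies on chromosome 11 at 94565047 to 94569127, overlapping Acsf2 on the opposite strand, with which it shares 0 exonic bases.

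Kera, known also as a corneal proteoglycan, stood at 8.84, 4.27 and 10.5 CPM in SED, 3.10, 6.05 and 4.62 CPM in AET, and 4.93, 4.12 and 2.60 CPM in AET_MET. SED replicate 2 lay within the range of both trained groups. Its log2 changes against SED were -0.76 ± 0.38 in AET and -1.03 ± 0.39 in AET_MET (edgeR adjusted p = 0.230 and 0.186). DESeq2 called the second (DESeq2 adjusted p = 0.0342). Kera lies on chromosome 10 at 97606879 to 97613692.

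Fmod and Chad were the most alike pair of members across libraries, beside Comp and Chad. Their RefSeq promoters are shown with that of Tnmd, as examples of members that moved together. Each window is the 250 bases before the annotated start (GRCm38.p6, 5′ to 3′), and capitals mark the E-box CANNTG, the core element bound by helix-loop-helix factors such as scleraxis.
Fmod, upstream window, chr1:134037004-134037253, plus strand: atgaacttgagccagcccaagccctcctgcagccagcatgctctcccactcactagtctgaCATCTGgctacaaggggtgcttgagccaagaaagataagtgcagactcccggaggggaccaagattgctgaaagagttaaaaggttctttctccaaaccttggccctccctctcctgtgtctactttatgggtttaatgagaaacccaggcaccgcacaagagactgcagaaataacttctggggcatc
Chad, upstream window, chr11:94564797-94565046, plus strand: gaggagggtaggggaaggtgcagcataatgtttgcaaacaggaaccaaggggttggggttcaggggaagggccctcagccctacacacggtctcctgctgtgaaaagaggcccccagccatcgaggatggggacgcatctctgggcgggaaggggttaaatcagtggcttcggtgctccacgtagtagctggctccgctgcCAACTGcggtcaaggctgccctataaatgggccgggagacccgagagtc
Tnmd, upstream window, chrX:133850758-133851007, plus strand: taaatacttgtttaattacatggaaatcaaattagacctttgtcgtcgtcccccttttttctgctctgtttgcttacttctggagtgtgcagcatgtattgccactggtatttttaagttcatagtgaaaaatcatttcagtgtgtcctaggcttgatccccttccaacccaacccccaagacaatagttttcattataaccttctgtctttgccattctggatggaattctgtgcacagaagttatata
RefSeq windows were matched for 6 of the 9 members, with 7 windows in all because Tnc has 2 starts whose windows overlap. On both strands, CANNTG was found in 5 of the 7 windows and in 66.2% of 32851 promoter windows of the same length. It occurred once in Fmod, once in Chad, once in Thbs4 and in both Tnc windows, and these letters were not in the Tnmd and Kera windows. Neither CAGCTG nor CACCTG, versions of the E-box that CANNTG includes, was in any of the 7 windows (13.0% and 17.2% of all windows). The TATA box TATAAA was in the Chad window and in both Tnc windows (12.4% of all windows). The EGR site GCGNGGGCG was in both Tnc windows (4.70% of all), and the SMAD element GTCTAGAC was in none of the 7 (0.167% of all).

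Of the thrombospondins, Thbs4 gave the smallest p of any member in AET against SED. Its level was 143, 164 and 200 CPM in SED, 65.0, 135 and 93.3 CPM in AET, and 78.3, 85.7 and 44.8 CPM in AET_MET. All trained libraries lay below all SED libraries, though AET replicate 2 missed SED replicate 1 by little. No overlap downward was seen for 16.3% of all genes in AET against SED, where Thbs4 was the only member with it. In AET_MET against SED 5 members showed it (Scx, Fmod, Thbs4, Comp and Tnc), against 13.4% of all genes. The log2 change of Thbs4 was -0.79 ± 0.34 in AET (edgeR adjusted p = 0.184) and -1.28 ± 0.34 in AET_MET (edgeR adjusted p = 0.0955, DESeq2 adjusted p = 0.00611). Thbs4 lies on chromosome 13 at 92751590 to 92794818.

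Comp, a matrix protein shared by tendon and cartilage, stood at 28.8, 19.0 and 41.9 CPM in SED, 8.45, 20.3 and 13.8 CPM in AET, and 9.5, 16.9 and 2.56 CPM in AET_MET. AET overlapped SED, and AET_MET did not. The log2 change was -1.07 ± 0.65 in AET and -1.63 ± 0.68 in AET_MET, the largest estimate of any member against SED (edgeR adjusted p = 0.342 and 0.246). It lies on chromosome 8 at 70373558 to 70382066.

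Tnc was similar in the 3 SED libraries and differed more among trained ones. Its level was 14.6, 15.5 and 18.6 CPM in SED, 9.35, 16 and 9.09 CPM in AET, and 9.19, 8.43 and 4.17 CPM in AET_MET. AET replicate 2 lay inside the SED range, and the AET_MET libraries lay below it. The log2 change was -0.50 ± 0.31 in AET (edgeR adjusted p = 0.346) and -1.17 ± 0.33 in AET_MET (edgeR adjusted p = 0.0967, DESeq2 adjusted p = 0.000661). Tnc lies on chromosome 4 at 63959785 to 64047015, and 176 of its 7772 exonic bases also belong to an opposite-strand transcript that stood at no more than 0.0898 CPM.

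Per kilobase of exon, the SED levels fell into a wide order. Fmod stood at 55.8 ± 19.9 and Thbs4 at 51.4 ± 8.73 CPM per kilobase (SD, n = 3), which did not differ beyond their spread. Comp followed at 10.1 ± 3.87, Chad at 8.84 ± 4.81 and Tnmd at 6.83 ± 2.60, neighbours within their spread. Kera stood at 3.45 ± 1.42, Tnc at 2.09 ± 0.266, Scx at 1.13 ± 0.105 and Mkx at 0.414 ± 0.159. The 2 transcription factor genes thus lay at the bottom. In AET_MET the order was the same except that Tnmd, at 3.33 ± 1.67, stood beside Comp at 3.25 ± 2.42.

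How far the members follow the amount of tendon was asked in several ways. One axis, the first principal component of the log2 CPM of the 9 genes, took 91.2% of their spread over 9 libraries. With group means removed it still took 90.6%, and 51.5% of the whole spread lay within groups. Values were centred per gene and not scaled, so Chad and Comp, the widest in spread, weighed most in these shares and Scx least. Across the 9 libraries the 21 pairs of members without Scx and Mkx correlated at r = 0.80 to 0.98, and over all 36 pairs the lowest value was 0.39, between Scx and Tnmd. These are descriptions of genes read from the same 9 libraries, with no test.

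Setting each member against the other 8 in the same library shows how much of its spread is shared. The SD of log2 CPM over 9 libraries was 0.82 for Fmod and fell to 0.16 relative to the mean of the others. For Thbs4 it went from 0.69 to 0.23, and for Tnmd from 0.80 to 0.32. The median SD of log2 CPM of all genes tested was 0.22. That value has nothing subtracted, so it is not a like measure for the relative SDs. For Comp the SD went from 1.16 to 0.52 and for Chad from 1.31 to 0.69, which is not a full removal. Both lay lowest relative to the others in AET_MET replicate 3, the library with the lowest level, at -0.53 for Comp and -1.99 for Chad, against 0.22 to 1.14 and -1.41 to 0.19 in the other 8 libraries. Mkx went from 0.65 to 0.42. Scx alone became more variable, from 0.39 to 0.66. Its log2 CPM spanned 0.24 within SED, 0.66 within AET and 0.23 within AET_MET. The mean of all 9 members spanned 0.83, 1.17 and 1.31 there.

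**Figure D2:**
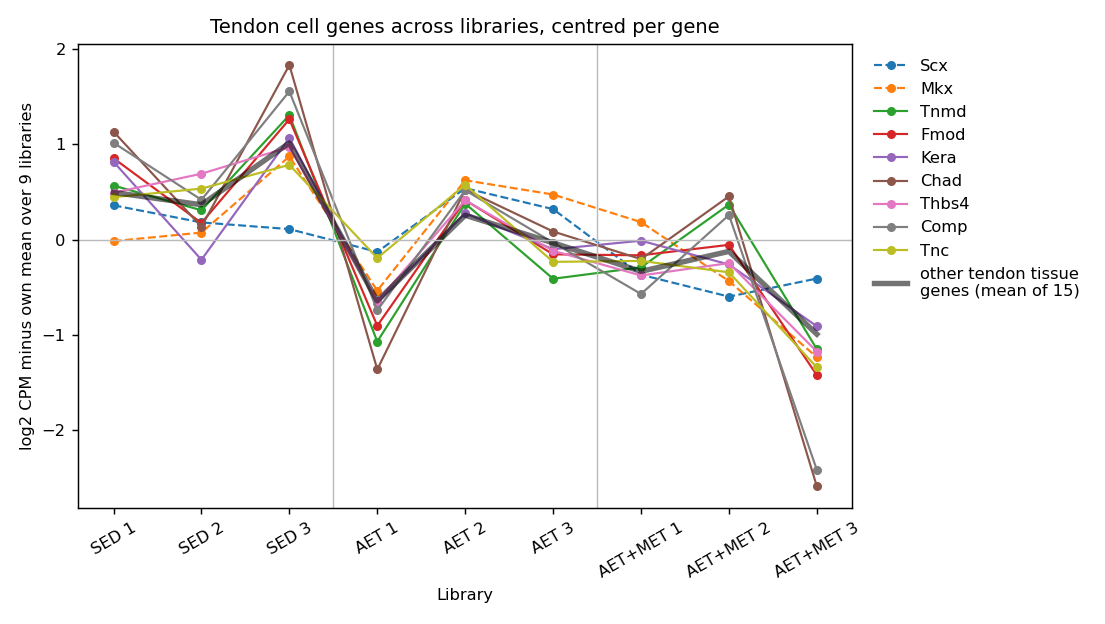
Log2 CPM of each tendon cell gene minus its own mean over the 9 libraries, by library; the thick line is the mean of 15 other tendon tissue genes treated in the same way, and dashed lines are the 2 transcription factor genes. Most lines run together, high in SED replicate 3 and low in AET replicate 1 and AET_MET replicate 3, with Scx the flattest.

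An index of tendon that held no member gave the same picture for 8 of the 9 genes. It was the mean log2 CPM of 15 other genes enriched in tendon tissue, among them Col1a1, Col1a2, Col11a1, Col12a1, Cilp2, Angptl7 and Itgbl1. Like the members, these genes were chosen with earlier results of these data known, so the p-values below are no independent check. The amount of tendon itself was not measured. The index took log2 values without scaling, so its widest genes weighed most, such as Angptl7 (18.2 to 300 CPM) and Wif1 (0.0477 to 3.91 CPM). The index was 4.20, 4.07 and 4.72 in SED, 3.06, 3.96 and 3.67 in AET, and 3.37, 3.58 and 2.71 in AET_MET, and so had the same top and bottom libraries. Over 9 libraries and 9 relations, 8 members correlated with it at a Benjamini-Hochberg adjusted p under 0.05 by a two-sided exact permutation test. The share of all genes that would pass is not given here, so this count has no background to be read against. Thbs4 had Pearson's r = 0.98 (exact p = 1.65e-05, adjusted p = 9.92e-05) and Spearman's rho = 0.98 (exact p = 4.96e-05, adjusted p = 0.000446). Fmod had r = 0.97 (exact p = 3.03e-05, adjusted p = 9.92e-05) and rho = 0.97 (exact p = 0.000165, adjusted p = 0.000495). Tnmd, Comp, Chad, Kera and Tnc lay between r = 0.91 and 0.95 (exact p from 3.31e-05 to 0.000965) and between rho = 0.78 and 0.97 (exact p from 0.000165 to 0.0172).

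The factors followed the index less closely. Mkx had r = 0.82 (exact p = 0.00736, adjusted p = 0.00828) and rho = 0.68 (exact p = 0.0503, adjusted p = 0.0566). Scx had r = 0.61 (exact p = 0.0844) and rho = 0.63 (exact p = 0.076), which did not pass. Leaving out SED replicate 3 and AET_MET replicate 3, the 2 libraries farthest from the median index, gave r = 0.96 for Thbs4, 0.93 for Fmod, 0.95 for Comp and 0.87 for both Tnmd and Chad over 7 libraries (exact permutation p from 0.000992 to 0.0137). Kera then had r = 0.76 (exact p = 0.0462), Tnc 0.81 (exact p = 0.055) and Mkx 0.48 (exact p = 0.274), so the Mkx relation rests on those libraries. The relation held within groups too, by a test that kept those 2 libraries, so it is no separate check for Mkx. With group means removed and pairings permuted within groups, r was 0.81 to 0.98 for the 8 genes (adjusted p from 0.0104 to 0.0416 by exact permutation, where 0.00463 is the smallest unadjusted p possible) and 0.36 for Scx (exact p = 0.537).

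Entering the index as a covariate in the edgeR fit moved most estimates to near or past 0. In AET against SED 7 of the 9 log2 changes turned sign, and the median went from -0.79 to 0.15. For Fmod the change was 0.15 ± 0.17 with the index against -0.95 ± 0.51 without it, and for Thbs4 -0.09 ± 0.14 against -0.79 ± 0.34. In AET_MET against SED 6 turned sign and the median went from -1.17 to 0.32, with Thbs4 at -0.23 ± 0.17 and Tnc at -0.28 ± 0.30. No member was called with the index in any comparison, and the lowest adjusted p was 0.0592, for Tnmd in AET_MET against AET (0.58 ± 0.16). For Scx the change in AET_MET against AET was -0.68 ± 0.25 with the index (edgeR adjusted p = 0.139) and -0.77 ± 0.22 without. In AET_MET against SED it was -0.47 ± 0.37 with the index (edgeR adjusted p = 0.669) and -0.71 ± 0.22 without. The mean index was 4.33 ± 0.34 for SED, 3.57 ± 0.46 for AET and 3.22 ± 0.45 for AET_MET (SD, n = 3). A covariate that differs between groups takes up part of any group difference, so a lower tendon share and a lower expression of these genes cannot be told apart by this fit.

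**Figure D3:**
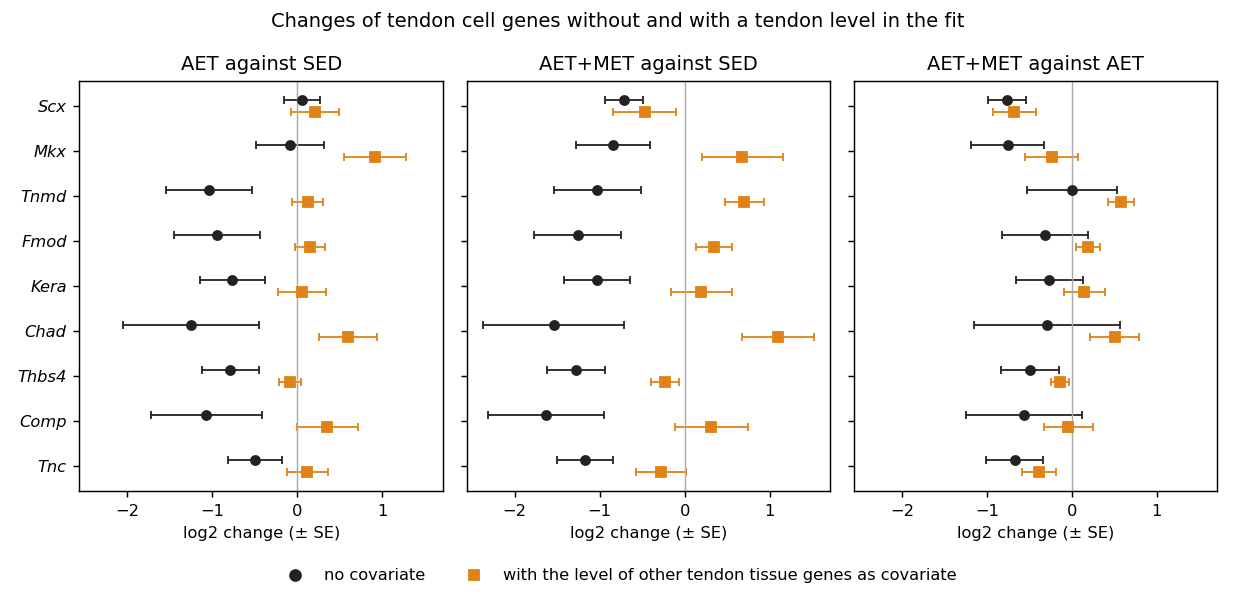
Log2 change ± SE of each tendon cell gene in the 3 comparisons, from edgeR fits without a covariate (circles) and with the mean level of 15 other tendon tissue genes as covariate (squares). Against SED, most circles lie between -0.5 and -1.6 and most squares lie near or above 0, while Scx in the right panel changes little.

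Between AET and SED, 1 of the 15 other tendon tissue genes rose and 1 fell. The counts were 0 and 4 between AET_MET and SED, and 0 and 1 between AET_MET and AET. Across all genes tested, 12.3%, 4.59% and 3.43% were called in these comparisons. The median log2 changes of the 15 were -0.69, -1.09 and -0.42, against 0.01, 0.00 and 0.00 over all genes. Col1a1 and Col1a2, the chains of type I collagen, did not follow the members' order of libraries. Col1a1 stood at 69.3, 145 and 110 CPM in SED, 54.7, 65.4 and 67.3 CPM in AET, and 33.6, 30.3 and 28.5 CPM in AET_MET. Its 3 AET_MET libraries lay close together, while Chad ran from 0.988 to 8.84 CPM in the same libraries. Col1a1 fell by 1.82 ± 0.25 on the log2 scale in AET_MET against SED (edgeR adjusted p = 0.0125), a call lost without AET_MET replicate 1 or AET_MET replicate 3 (adjusted p up to 0.0755).

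Col1a2 fell by 0.62 ± 0.13 in AET against SED (edgeR adjusted p = 0.0114) and by 1.21 ± 0.13 in AET_MET against SED (edgeR adjusted p = 0.00155). The first call was lost without AET replicate 1 or AET replicate 3 (highest adjusted p 0.0589), and the second held in all 6 fits that left out a library of its groups. Its fall of 0.59 ± 0.13 in AET_MET against AET (edgeR adjusted p = 0.0369) was lost in every such fit (adjusted p up to 0.157). Cpxm2 and Prelp fell in AET_MET against SED, by 1.09 ± 0.19 and 0.61 ± 0.13 (edgeR adjusted p = 0.0112 and 0.0186). The Cpxm2 call was lost without AET_MET replicate 1 or 3, and the Prelp call also without SED replicate 1 or 3 (adjusted p up to 0.0734 and 0.110). With the index as covariate, of which these genes are part, none of these calls remained, but the collagen estimates stayed about as large with wider errors. In AET_MET against SED, Col1a1 was then at -1.67 ± 0.46 and Col1a2 at -1.02 ± 0.21, and Col1a2 in AET was at -0.49 ± 0.17. Cpxm2 and Prelp moved more, to -0.48 ± 0.21 and -0.34 ± 0.18. Tppp3, which marks cells of the tendon sheath, went the other way, from 13.7 ± 2.93 to 21.3 ± 2.32 CPM in AET, a log2 change of 0.63 ± 0.15 (edgeR adjusted p = 0.0231). That call was lost without SED replicate 1, SED replicate 2, AET replicate 2 or AET replicate 3 (highest adjusted p 0.0870). With the index as covariate the Tppp3 call remained, at 0.93 ± 0.16 (edgeR adjusted p = 0.00779). In AET_MET against SED, without the covariate, Tppp3 was at 0.60 ± 0.16 (edgeR adjusted p = 0.0537). Angptl7, a secreted matrix regulator, had a large but uncertain estimate in AET of -2.45 ± 0.72 (edgeR adjusted p = 0.0799), from 187, 123 and 300 CPM in SED and 18.2, 59.0 and 34.0 CPM in AET.

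Relatives of the members by protein family were read next, some of which tendon also makes. Of the 13 leucine-rich repeat proteins of the matrix that are no members, 9 were tested. In AET against SED 2 of them fell, Dcn, encoding decorin, by 0.47 ± 0.14 and Omd by 0.94 ± 0.28 (edgeR adjusted p = 0.0415 and 0.0475), and each call was kept only without SED replicate 2. Leaving out SED replicate 1, SED replicate 3 or any AET replicate ended both (adjusted p up to 0.139 and 0.188), as did upper-quartile scaling, library sizes alone, the replicate block and the slow-fiber covariate. With the index as covariate Dcn was at -0.21 ± 0.14 and Omd at -0.36 ± 0.33, and neither was called. Prelp, which stands in this list too, was the 1 called in AET_MET against SED. Across all genes, 12.3% were called between AET and SED and 4.59% between AET_MET and SED. Thbs1, a thrombospondin of stressed tissue, fell from 120 ± 15.2 to 34.6 ± 11.6 CPM in AET against SED, by 1.79 ± 0.38 (edgeR adjusted p = 0.0296). Its SED libraries stood at 108 to 137 CPM and its AET libraries at 24.2 to 47.1 CPM. The Thbs1 call was kept without AET replicate 2 and lost without SED replicate 1, 2 or 3 or AET replicate 1 or 3 (adjusted p up to 0.101), with no filter on low counts and with the slow-fiber covariate. With the index it was called at a smaller estimate of -1.06 ± 0.20 (edgeR adjusted p = 0.0280). Thbs2 and Tnxb were not called, and Tnxb, a tenascin of loose connective tissue, averaged 148 ± 6.17 CPM for SED, 162 ± 10.1 for AET and 144 ± 18.1 for AET_MET (SD, n = 3).

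Signals that act on tendon cells held a few calls in both directions. TGF-beta ligands and mechanical load drive the tenocyte program, and the growth factors of the GDF family take part in tendon formation. Of 27 such genes, 24 were tested, and Gdf5, Gdf6 and Gdf7 were too low, at no more than 0.520 CPM. Between AET and SED 1 rose and 3 fell, where 12.3% of all genes were called. Between AET_MET and SED 2 rose (Tgfb2 and Eya1) and 1 fell, where 4.59% of all genes were called. Between AET_MET and AET 1 rose (Mstn), where 3.43% of all genes were called. The median log2 changes of the list were -0.09, -0.15 and 0.01. Estimates were lower for 15, 16 and 11 of the 24. The receptor gene Tgfbr3 fell from 68.8 ± 9.81 to 41.1 ± 5.08 CPM in AET (log2 change -0.75 ± 0.12, edgeR adjusted p = 0.00224), a call kept in all 6 fits that left out a library. Ccn1, a matricellular target of mechanical signals, fell by 1.13 ± 0.18 in AET (edgeR adjusted p = 0.00522), also kept in 6 of 6, and by 0.99 ± 0.18 in AET_MET (edgeR adjusted p = 0.0194), kept in 2 of 6. With the index the AET estimate of Ccn1 was about as large, at -1.05 ± 0.27, but not called (edgeR adjusted p = 0.0787). The AET_MET call of Ccn1 was lost without SED replicate 1 or 3 or AET_MET replicate 1 or 3 (adjusted p up to 0.101). Tgfbr1 fell in AET by 0.43 ± 0.10 and Tgfb2 rose by 0.51 ± 0.13 (edgeR adjusted p = 0.0141 and 0.0234). Each was kept in 3 of 6 fits, Tgfbr1 being lost without SED replicate 1 or AET replicate 2 or 3, and Tgfb2 without SED replicate 2 or 3 or AET replicate 1 (highest adjusted p 0.0651 and 0.0930). With the index as covariate Tgfb2 was at 0.27 ± 0.15 in AET (edgeR adjusted p = 0.329). In AET_MET against SED, the Eya1 call was lost without SED replicate 2 or AET_MET replicate 1 (highest adjusted p 0.0583), and the Tgfb2 call was kept only without AET_MET replicate 2 (highest 0.157). The Eya1, Tgfb2 and Ccn1 calls of AET_MET against SED were also lost with the index and with the slow-fiber covariate, where Tgfb2 was at 0.19 ± 0.18 and 0.34 ± 0.15. The Mstn call between AET_MET and AET was likewise kept only without AET_MET replicate 2 (highest 0.104), and it was lost with the slow-fiber covariate. Smad2, Smad3, Smad4 and Smad7, which carry or damp the TGF-beta signal and were picked for mention after their values were seen, were not called in any comparison.

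Other cell types give the background for the amount of tendon. Genes that fibers express at the muscle-tendon junction, such as Col22a1 and Fras1, held 0 calls of 9 in every comparison. Their mean log2 CPM had the members' extremes, 4.28 in SED replicate 3 and 3.47 in AET_MET replicate 3. Single genes of this list differed. Fras1 had these extremes, at 4.89 and 1.84 CPM, but Vcl stood at 72.0 and 76.2 CPM in the same libraries. Adamtsl1 stood there at 8.45 and 8.98 CPM. The mean of the fibroblast markers did not have the members' extremes. It stood at 4.30 in SED replicate 3, 4.59 in AET replicate 1 and 4.41 in AET_MET replicate 3. It spanned 0.45 over all 9 libraries, against 2.49 for the members. Single markers differed, and Pdgfra had the members' extremes, at 58.3 CPM in SED replicate 3 and 39.1 CPM in AET_MET replicate 3. Estimates were lower for 6 and higher for 7 in AET against SED, and lower for 7 and higher for 6 in AET_MET against SED. All 13 fibroblast genes were tested, with 3 rises in AET against SED (Cd248, Col15a1 and Clec3b), where 12.3% of all genes were called. There were 0 calls in AET_MET against SED, where 4.59% of all genes were called. In AET_MET against AET there were 2 falls, where 3.43% of all genes were called. These were Col15a1 by 0.82 ± 0.14 and Cd248 by 0.73 ± 0.15 (edgeR adjusted p = 0.0141 and 0.0246). The 13 genes summed to 1160 to 1430 CPM in SED, 1030 to 1330 in AET and 1100 to 1210 in AET_MET. Cartilage and bone markers were close to 0. Of 10, only Sox9 passed the filter, Matn1, Ibsp and Bglap had no read in any library, and the summed level was at most 2.79 CPM, with Acan at no more than 0.396 CPM and Col2a1 at no more than 0.429 CPM.

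The slow-fiber genes also differed widely between libraries, and their order of libraries was another one. All 9 were measured and none was called. Between groups they leaned the same way as the members. Estimates were lower for 8 of 9 in AET against SED, 9 of 9 in AET_MET against SED and 9 of 9 in AET_MET against AET. The median log2 changes of these slow-fiber genes were -0.39, -1.24 and -0.83. Their summed level was 854 to 1040 CPM in SED, 359 to 1320 in AET and 104 to 745 in AET_MET. Their mean log2 CPM was lowest in AET_MET replicate 1, at 2.54, where the members stood at 3.06, and highest in AET replicate 3, at 6.71. In AET_MET replicate 3, where the members were lowest, it was 4.57. When the mean slow-fiber level was added as a covariate, the log2 change of Fmod in AET_MET against SED was -1.33 ± 0.71 and that of Thbs4 -1.31 ± 0.48, and no member was called. Of the Schwann cell markers, 3 of 10 were called higher in AET against SED (median log2 change 1.21), where 12.3% of all genes were called. In AET_MET against SED 0 of 10 were called (median 0.05), where 4.59% of all genes were called. The summed level of the 10 was 70.7 to 77.9 CPM in SED, 123 to 203 CPM in AET and 54.3 to 113 CPM in AET_MET. Whether fiber type or nerve content has a part in the members' levels was not tested.

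**Figure D4:**
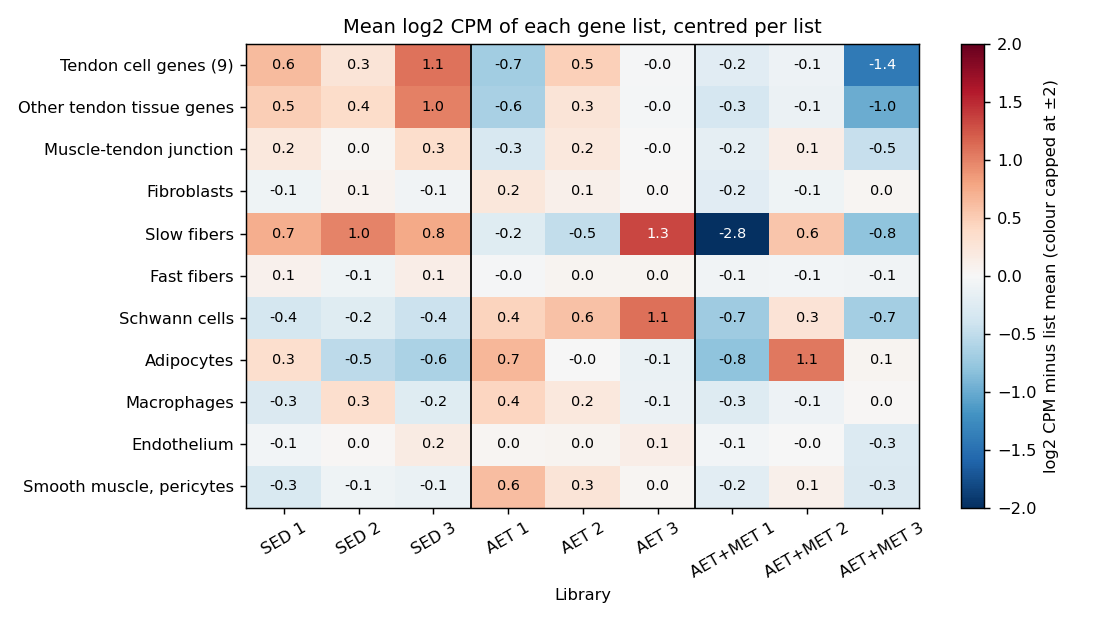
Mean log2 CPM of each gene list in each library, minus the list's mean over the 9 libraries; rows are lists, columns libraries, and red is above and blue below the list mean. The rows of tendon cell genes and of other tendon tissue genes share their extremes, 1.08 and 1.02 in SED replicate 3 and -1.41 and -0.99 in AET_MET replicate 3, while fibroblasts stay within 0.23 of their mean.

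The genes whose pattern was most like that of the members included Col11a1, Cilp2 and Col12a1, which are part of the tendon index, and Fras1 of the junction list. Likeness was Pearson's r over the 9 libraries with the mean log2 CPM of the 9 members, over 12078 genes of at least 1 CPM on average, and it is a description with no test. The 8 highest that are no members were Col11a1 (0.984), Fras1 (0.977), Boc (0.977), Cilp2 (0.965), Col12a1 (0.960), Elmo1 (0.958), Serhl (0.952) and Ier2 (0.950). Col11a1, a fibril collagen that nucleates thin fibrils, stood at 7.28, 6.08 and 11.3 CPM in SED, 2.24, 6.68 and 4.58 CPM in AET, and 2.84, 2.87 and 0.988 CPM in AET_MET. Fras1, a basement membrane gene of the junction list, stood at 4.21, 3.17 and 4.89 CPM in SED, 2.29, 3.83 and 3.04 CPM in AET, and 2.96, 3.47 and 1.84 CPM in AET_MET. Boc, a surface receptor that assists hedgehog signalling and muscle differentiation, ranged only from 5.34 CPM in AET_MET replicate 3 to 11.2 CPM in SED replicate 3. With so few libraries, 32 genes lay above 0.9 and 26 below -0.9, so a high r alone does not mark a tendon gene.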

How the data were processed

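RNA-seq libraries of gastrocnemius from 3 groups of 3 were analysed from the deposited table of RSEM expected counts, estimated read numbers per gene made by the authors. STAR 2.5.3a, RSEM 1.3.0, edgeR 3.34.0 and GRCm38 are named, without roles, per the submitters' processing notes. The sources used here do not give the annotation release, filters or strand setting. Symbols, positions and exon lengths came from GENCODE M21 (GRCm38), which named 52135 of 55416 identifiers. Between 4.85% and 5.53% of a library's values were not whole, and all were rounded.

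All 9 libraries entered 1 robust quasi-likelihood fit (edgeR 4.0.16, R 4.3.3) after filterByExpr, with TMM factors (6 residual degrees of freedom, common biological coefficient of variation 0.134). Calls were made below 0.05 after Benjamini-Hochberg adjustment over all 13944 genes. Levels are mean ± SD (n = 3) of TMM-scaled CPM, and log2 CPM used a prior count of 2. Named genes were all members, up to 4 genes of smallest p per list and comparison, and the 8 most alike in pattern. Called genes of some lists were checked under the alternatives after seeing the data. DESeq2 1.42.0 was an alternative. Fits were tested on simulated data with 1 shared spread for all genes. That spread was smaller than those of Chad and Comp, so genes as variable as these were not covered. Members and lists were chosen with earlier results of these data known.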

Additional observations from a re-analysis of the deposited data

How the results depend on the processing

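No tendon cell gene was called in AET against SED or AET_MET against AET under any alternative, and in AET_MET against SED only DESeq2 called any, namely 3 (Thbs4, Kera and Tnc). The number of all genes called moved more. It was 1712 in AET against SED, 639 with the tendon index as covariate, and 934 to 1260 with 1 library left out. It was 640 in AET_MET against SED, 20 with the index and 26 with the slow-fiber level as covariate, and 141 to 655 with 1 library left out. In AET_MET against AET it was 478, 767 with library sizes alone, 880 with DESeq2, 731 with no filter on low counts, 31 with the slow-fiber covariate, and 23 to 382 with 1 library left out. With library sizes alone, the median over all genes shifted by 0.101 on the log2 scale in AET_MET against SED. The cause of these moves was not tested.

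Directions turned under the index covariate. In AET against SED the log2 changes became 0.12 (Tnmd), 0.92 (Mkx), 0.15 (Fmod), 0.36 (Comp), 0.60 (Chad), 0.0534 (Kera) and 0.12 (Tnc). In AET_MET against SED they became 0.70 (Tnmd), 0.68 (Mkx), 0.34 (Fmod), 0.32 (Comp), 1.10 (Chad) and 0.20 (Kera), and in AET_MET against AET 0.19 (Fmod), 0.50 (Chad) and 0.15 (Kera). With 1 library left out, Scx in AET against SED ran from -0.11 to 0.22 and Mkx from -0.32 to 0.26. In AET_MET against AET, Tnmd ran from -0.47 to 0.47, Fmod from -0.593 to 0.0477 and Chad from -1.02 to 0.21. The Tnmd difference there, 0.0013, became -0.0076 with upper-quartile scaling, -0.022 when the filter asked for 5 CPM in 3 libraries and -0.0010 with only the 2 groups compared. All these values were uncalled. By Pearson's r, the relation to the index passed for 8 members with library sizes alone and with a prior count of 0.5. It did so too with an index that lacked Col1a1, Col1a2 and Col12a1. Col1a1 and Col1a2 did not follow the members' order of libraries, so their removal could hardly weaken the relation. The relation also passed for 8 members with any 1 library left out other than AET_MET replicate 3. Without that library Mkx no longer passed (7 members). No share of all genes is given beside these counts. By Spearman's rho Mkx did not pass (exact permutation, adjusted p = 0.0566), and without the 2 libraries farthest from the median neither Mkx nor Tnc had an exact p under 0.05 (0.274 and 0.055).

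The replicate block, a fit with the replicate number as a block, gave 1530, 535 and 358 calls in the 3 comparisons and called no member. The deviations of same-numbered libraries correlated at -0.05 to 0.18, not above 0.1 in every pair, so the numbers were not taken as pairs. With 3 libraries a group, a spread between libraries as wide as that of Chad or Comp limits what any of these tests can call, and Scx and Mkx are further limited by counts of 73 reads or fewer.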
